A study of Mus musculus with 6 samples.

Results

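The triad and excitation-contraction coupling genes are 10 protein-coding genes whose products carry the signal from a muscle action potential to calcium release: Cacna1s, Cacnb1, Cacng1, Stac3, Ryr1, Ryr3, Trdn, Jph1, Jph2 and Bin1. They were chosen by symbol, mapped to Ensembl identifiers, and all 10 were among the 21666 genes of the count matrix and among the 15518 that passed the low-count filter. The libraries were RNA-seq of skeletal muscle satellite cells, the stem cells of muscle, after 2 days of differentiation. There were 3 libraries from wild-type (WT) mice and 3 from mice labelled as knockouts (KO) of lncMREF, a long noncoding RNA that the series title ties to myogenic differentiation and to the Smarca5/p300 complex. Strain, age, sex, the deleted region and whether a library stands for 1 animal or a pool are not stated in the labels. The targeted RNA was not matched to a gene identifier, so the genotype was not checked from the counts.

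In skeletal muscle, an invagination of the surface membrane called the T-tubule lies against the sarcoplasmic reticulum, the calcium store, and the junction is called the triad. Depolarisation moves the voltage sensor of the L-type calcium channel in the tubule, and this movement opens the ryanodine receptor in the facing store membrane through protein contact, without calcium having to enter the cell first. Triadin and the junctophilins hold the facing membranes and the store proteins in register, and the machinery is assembled late, as myoblasts leave the cell cycle and become myotubes.

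All 10 genes were lower in KO than in WT cells, by 2.44-fold to 6.88-fold. By point estimate, triadin (Trdn) and the voltage sensor (Cacna1s) had the largest falls, and the membrane-shaping gene Bin1 and the minor release channel Ryr3 the smallest. In none of the 10 did the level of any KO library overlap that of any WT library. By edgeR's quasi-likelihood test 33.0% of all tested genes were lower in KO at an adjusted p under 0.05, 33.7% were higher, 34.1% were lower with no overlap between groups, and 9.38% were called lower by over 2-fold. The median log2 fold change (KO over WT) of the 10 was -1.70, beside 0.02 over all tested genes. In bulk RNA, fewer myocytes in KO cultures and less of each RNA per myocyte cannot be told apart.

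The promoter windows are shown as a description of sequence, and no link between their motifs and the falls was tested. RefSeq windows (build GRCm38.p6, 250 bases before to 50 after a start site) were found for 4 of the 10 genes, and those of the voltage sensor, the main release channel and a junctophilin are printed 5′ to 3′ on the gene's strand. Capitals mark E-boxes, MCAT elements and GC boxes on either strand.
Cacna1s, chr1:136052561-136052860, plus strand: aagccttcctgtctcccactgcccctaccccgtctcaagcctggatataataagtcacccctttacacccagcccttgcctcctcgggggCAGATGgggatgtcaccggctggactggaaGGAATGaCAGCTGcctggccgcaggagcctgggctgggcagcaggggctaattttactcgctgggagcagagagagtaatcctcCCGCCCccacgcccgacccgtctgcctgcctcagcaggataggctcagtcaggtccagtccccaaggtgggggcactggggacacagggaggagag
Ryr1, chr7:29125102-29125401, minus strand: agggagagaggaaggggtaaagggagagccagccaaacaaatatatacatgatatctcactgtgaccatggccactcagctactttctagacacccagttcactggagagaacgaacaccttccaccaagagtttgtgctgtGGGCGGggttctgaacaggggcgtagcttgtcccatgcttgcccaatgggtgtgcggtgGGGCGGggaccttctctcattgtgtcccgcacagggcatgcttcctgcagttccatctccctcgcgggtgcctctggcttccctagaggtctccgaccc
Jph2, chr2:163397944-163398243, minus strand: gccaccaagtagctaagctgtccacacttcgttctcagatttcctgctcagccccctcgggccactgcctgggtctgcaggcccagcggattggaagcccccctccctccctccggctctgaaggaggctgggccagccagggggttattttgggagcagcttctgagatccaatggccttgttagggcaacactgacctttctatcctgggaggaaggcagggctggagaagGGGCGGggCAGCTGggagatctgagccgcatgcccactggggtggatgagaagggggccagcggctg
E-boxes, of the form CANNTG, are bound by the myogenic factors Myod1 and Myog; MCAT elements, searched as CATTCC, are bound by Tead factors. GC boxes were searched as GGGCGG. Counted with the start site as +1, the Cacna1s window held E-boxes starting at -160 and -123, and the second of them, of the form CAGCTG, stood next to an MCAT element starting at -130. Jph2 has 2 overlapping windows in the table, which hold the same E-box of that form and the same GC box: the E-box starts at -9 from one start site and at -29 from the other, and the GC box at -17 and -37. The Ryr1 window held no E-box and no MCAT element, and had GC boxes at -108 and -49. Cacnb1 also has 2 windows: the upstream (chr11:98022578-98022877) held 5 GC boxes and no E-box, and the downstream (chr11:98018323-98018622) held 1 E-box at -27 and no GC box. Among all 32851 windows of this length, 72.3% held an E-box, 16.3% an E-box of the form shared by Cacna1s and Jph2, 14.7% an MCAT element and 35.7% a GC box. The MEF2 and CArG motifs, each searched on both strands, matched in none of the windows of these 4 genes and in 3.19% and 1.63% of all windows. A GC box was found in at least 1 window of each of the 4 genes, in Cacna1s at -46, and an E-box in a window of each but Ryr1. A match is a description of these letters and not a binding site.

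The authors deposited the counts in 2 forms, as a matrix and as a table per library, and the forms differ for these genes. Among 9941 genes with a matrix mean of at least 200 counts, the per-library mean lay between 0.8 and 1.25 times that of the matrix in 5.84%. Of the 52083 per-library gene identifiers that are also in GENCODE M21, an mm10 annotation, 35 carried the same version number and 52046 a higher one. Bin1, at a mean of 13400 counts in the matrix, had 2.83 there, and Jph2 had 0.333 in place of 5330. Only 5 of the 10 genes could be tested in the per-library tables: Cacna1s (log2 fold change -1.01) and Trdn (-2.21) were called lower, and Ryr1 (0.04), Ryr3 (-0.05) and Cacng1 (-0.08) were not called. Ryr3 was the only member whose per-library mean, at 0.888 times the matrix mean, lay in that range. All values that follow are from the matrix, which the choice of these genes names, and the cause of the difference was not tested.

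Matrix totals ran from 17919826 to 28430678 counts. Muscle lineage markers were present in both groups: Des, Cdh15, Myod1 and Myog were lower in KO, the satellite cell marker Pax7 was higher, Myf5 was not called, and the 6 summed to 4428 to 4575 CPM (counts relative to the scaled library total) in WT and 1081 to 1089 in KO. Markers of other cells moved with genotype too, where 33.0% of all tested genes were lower and 33.7% higher. The 6 endothelial markers were all lower (277.8 to 286.5 CPM summed in WT, 67.8 to 73.3 in KO), all 8 macrophage markers were higher (105 to 116 and 339.5 to 352), and 5 of 6 Schwann and glial markers were higher (201 to 208.7 and 742 to 744). Of 4 fibro-adipogenic markers 3 were lower and 1 higher (303 to 312 and 243 to 257); Dpt, 1 of the 3, was not called with DESeq2 (adjusted p 0.063), with library size only (0.196) or without WT replicate 2 or 3 or KO replicate 2 or 3, and the 1.5-fold test called none of the 4. Of 6 smooth muscle and pericyte markers 4 were lower, 1 was higher and 1 was not called (1076 to 1119 and 1015 to 1064). The cardiac markers summed to 0.997 to 1.79 CPM over all libraries, and of the neuronal markers Snap25 and Syt1 averaged under 0.2 CPM in both groups, with Snap25 at 0 in KO, while Tubb3 held nearly all of that list's sum. Tubb3 was called higher (0.24, edgeR adjusted p 0.000232), but not by the 1.5-fold test. The cardiac Tnni3 was called higher too (0.81, edgeR adjusted p 0.0389), and lost this call in most alternatives, such as DESeq2 (adjusted p 0.105). The part of these cells in the results on the triad genes was not tested.

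**Figure D1:**
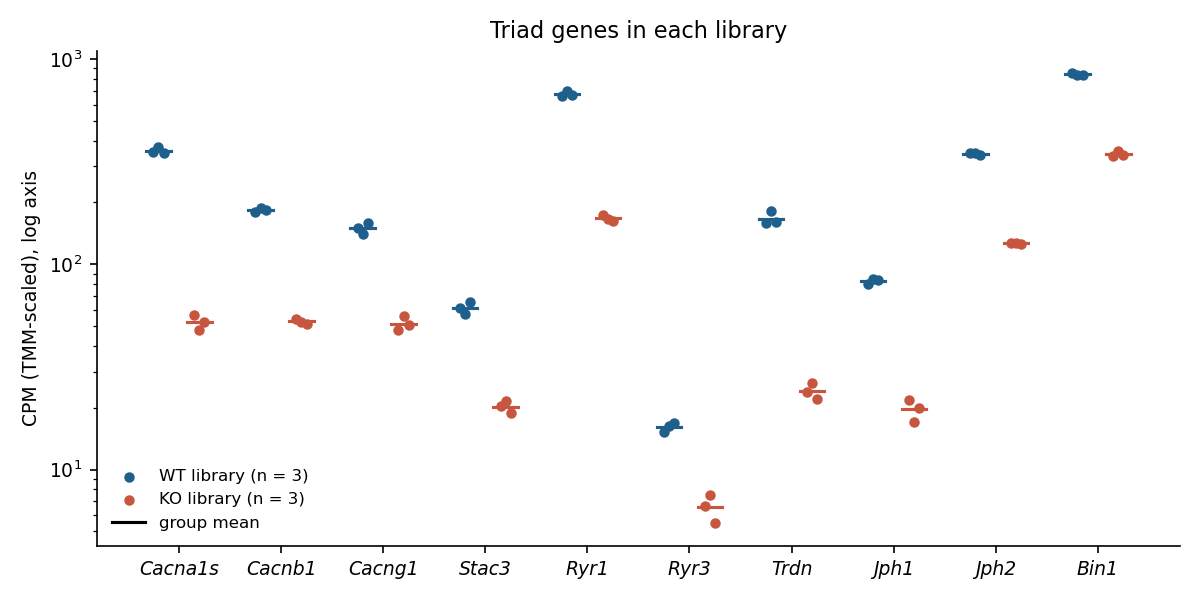
Level of each triad gene in each of the 6 libraries, as TMM-scaled CPM on a log axis; points are libraries and bars are group means. For every gene the 3 KO libraries lie below the 3 WT libraries, with the widest gap for Cacna1s and Trdn.

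The voltage sensor complex in the tubule membrane fell in each of its subunits. Cacna1s, the pore-forming and voltage-sensing subunit of the skeletal L-type calcium channel (ENSMUSG00000026407, mm10 chr1:136052750-136119822), stood at 350.4, 374.6 and 350.0 CPM in the WT libraries and at 56.7, 48.0 and 52.6 in the KO libraries. All 3 KO libraries were far below the lowest WT library, and the level was 6.84-fold lower, or -2.77 on the log2 scale (SE 0.05, edgeR adjusted p 1.85e-29). The antisense gene Gm37759 covers 20.0% of the exonic bases of Cacna1s. It was counted at 0.748 ± 0.277 CPM in WT and 0.105 ± 0.014 in KO (SD, n = 3). Gm37759 was itself called lower (-2.76, SE 0.54, edgeR adjusted p 3.06e-05). The labels do not say whether the counting used strand or how reads in shared bases were assigned. The effect of the overlap on the Cacna1s level was not tested.

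Cacnb1, the intracellular beta subunit that brings the channel to the triad (ENSMUSG00000020882, chr11:98001508-98023034), was at 179, 187.5 and 184 CPM in WT and at 54.0, 52.5 and 51.4 in KO. Its log2 fold change was -1.80 (SE 0.05, edgeR adjusted p 2.08e-27). Cacng1, the gamma subunit that dampens the skeletal channel's current (ENSMUSG00000020722, chr11:107703218-107716522), went from 149, 139.8 and 159.6 CPM to 48.0, 55.8 and 50.5, a change of -1.54 (SE 0.06, edgeR adjusted p 1.07e-19). Stac3, an adaptor needed for the channel to reach the membrane and couple to the ryanodine receptor (ENSMUSG00000040287, chr10:127501686-127508823), went from 61.2, 57.1 and 65.3 to 20.4, 21.5 and 18.8 CPM (-1.59, SE 0.07, edgeR adjusted p 3.87e-21). The RNA of these 3 genes in KO was thus 28.7% to 34.4% of its WT level, against 14.6% for Cacna1s.

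Within each library, the log2 ratio of Cacnb1 counts to Cacna1s counts was -0.96 ± 0.04 in WT and 0.01 ± 0.11 in KO (SD, n = 3 each). It was higher in every KO library than in any WT library, a 1.96-fold change of the ratio. The exact two-sided permutation test gave p = 0.1, the smallest that 3 libraries against 3 allow, and the same value after adjustment over the 4 ratios compared.

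Of the 2 ryanodine receptor genes in the set, Ryr1 was the more abundant. Ryr1, the skeletal ryanodine receptor that the voltage sensor opens (ENSMUSG00000030592, chr7:29003344-29125179), was at 661, 701 and 667 CPM in WT and at 174, 166 and 162 in KO. That is 4.04-fold lower, or -2.01 on the log2 scale (SE 0.04, edgeR adjusted p 9.06e-30), and the 3 libraries of a group lay close together. Ryr3, a release channel of immature and some adult muscles that is opened by calcium rather than by the voltage sensor (ENSMUSG00000057378, chr2:112631355-113217096), was at 15.3, 16.3 and 16.8 CPM in WT and at 6.61, 7.53 and 5.48 in KO. Its fall was the least precisely measured of the 10 (-1.29, SE 0.11, edgeR adjusted p 1.12e-12). Ryr3 shares 4.83% of its exonic bases with Aven on the opposite strand, which was at 15.2 ± 1.19 CPM in WT and 16.5 ± 1.39 in KO and was not called (0.12, SE 0.09, edgeR adjusted p 0.251).

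Per kb of exonic length, Ryr3 made up 2.67% of the Ryr1 and Ryr3 levels together in WT and 4.3% in KO. The log2 ratio of Ryr3 to Ryr1 counts went from -5.39 ± 0.07 to -4.69 ± 0.21 (SD, n = 3), with no overlap between groups (exact two-sided permutation p = 0.1, also after adjustment). The log2 ratio of Cacna1s to Ryr1 went the other way, from -0.92 ± 0.01 to -1.68 ± 0.10, so that each KO library had less voltage sensor RNA per release channel RNA than any WT library (exact two-sided permutation p = 0.1, also after adjustment). In the per-library tables, the change in the Ryr3 to Ryr1 ratio was -0.094 in place of 0.70, the opposite direction.

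Trdn, triadin, which ties the calcium-binding store protein calsequestrin to the ryanodine receptor (ENSMUSG00000019787, chr10:33080554-33476709), was at 158, 181 and 161 CPM in WT and at 23.9, 26.5 and 22.0 in KO. It had the largest fall of the set, 6.88-fold or -2.78 on the log2 scale (SE 0.07, edgeR adjusted p 4.62e-22). Trdn and Cacna1s could not be ordered against each other, since the log2 ratio of their counts changed by -0.02 and overlapped between groups.

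The junctophilins span the gap between tubule and store and hold the membranes together. Jph1, the form most tied to skeletal muscle (ENSMUSG00000042686, chr1:16964560-17097889), went from 80.1, 85.0 and 84.0 CPM to 21.8, 17.0 and 20.0, a log2 fold change of -2.09 (SE 0.07, edgeR adjusted p 4.44e-23). Jph2, which heart muscle uses as well (ENSMUSG00000017817, chr2:163336242-163397993), went from 349, 348.5 and 341 to 126.5, 128 and 125 CPM (-1.45, SE 0.04, edgeR adjusted p 3.74e-26). Jph2 was thus the more abundant form in both groups, at 81.4 CPM per kb against 16.6 for Jph1 in WT and 29.7 against 3.93 in KO. Its share of the 2 levels per kb was 83.0% in WT and 88.3% in KO. The log2 ratio of Jph2 to Jph1 counts rose from 2.06 ± 0.06 to 2.70 ± 0.19 (SD, n = 3), higher in 3 of 3 KO libraries than in any WT library (exact two-sided permutation p = 0.1, also after adjustment).

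Bin1, amphiphysin 2, which bends membrane into tubules (ENSMUSG00000024381, chr18:32377230-32435737), was the most abundant of the set. It was at 852, 840.4 and 837 CPM in WT and at 337, 358 and 339.9 in KO, a log2 fold change of -1.29 (SE 0.04, edgeR adjusted p 8.44e-25). Bin1 is also made in non-muscle cells as isoforms that lack the muscle exon, and counts per gene do not separate these forms.

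Per kb of exonic length in WT, the order of levels was Bin1 (205 CPM per kb), Cacng1 (119.8), Jph2 (81.4), Cacna1s (54.7), Cacnb1 (40.5), Ryr1 (31.0), Stac3 (24.1), Trdn (17.9), Jph1 (16.6) and Ryr3 (0.849). Neighbours in this order did not overlap between WT libraries except Trdn and Jph1. Exonic length was the union of the exons of all annotated transcripts of a gene, and not the length of the transcripts made. The order depends on this choice. The order of falls was a different one: Trdn and Cacna1s, then Jph1 and Ryr1, then Cacnb1, then Stac3, Cacng1 and Jph2, then Bin1 and Ryr3. The steps were drawn from these data: count ratios of neighbours within a step overlapped between groups, and those of neighbours across steps did not. For each pair across steps the exact two-sided permutation test gave p = 0.1, the smallest possible, with no adjustment. The steps are thus a description and not a tested order. Only neighbours in the order were compared. Ryr3 was set against Bin1 alone, and whether it differs from the step of Jph2 was not tested. Without KO replicate 2 the log2 fold change of Ryr3 was -1.41, beside -1.46 for Jph2. Exonic length ran from 1249 to 21838 bases and transcript GC content from 36.8% to 61.8%, and per-library offsets for both left all 10 genes called lower.

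**Figure D2:**
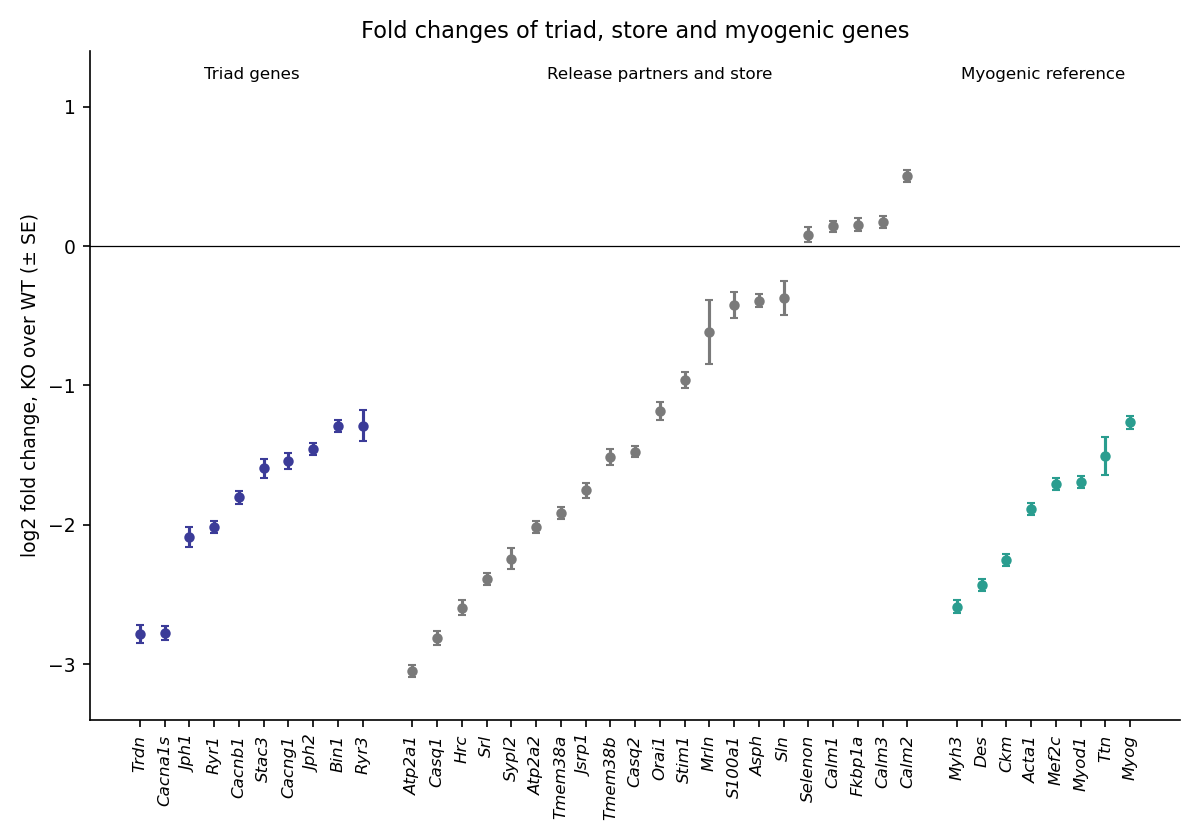
Log2 fold change, KO over WT, with its standard error, for the 10 triad genes, 21 release partner and store genes and 8 myogenic reference genes, each group ordered by value. All triad and reference genes lie below -1, whereas the store list runs from -3.05 for Atp2a1 to 0.50 for Calm2.

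Relative to Myog, the transcription factor that drives myoblasts into differentiation, the triad genes did not all fall by the same amount. Myog itself fell 2.4-fold (787, 724 and 738 CPM in WT, 325, 302 and 309 in KO). This was the smallest fall of the 8 reference genes, at -1.26 on the log2 scale, beside -1.69 for Myod1 and -1.71 for Mef2c. The sizes given here depend on Myog as the reference, and no ratio to another reference gene was taken. The log2 ratio of Trdn to Myog counts was lower by 1.53 in KO and that of Cacna1s by 1.51, followed by Jph1 (0.82), Ryr1 (0.75), Cacnb1 (0.54), Stac3 (0.33), Cacng1 (0.28) and Jph2 (0.19). For these 8 genes no KO library overlapped a WT library, and the exact two-sided permutation test gave its smallest possible p = 0.1 (0.125 adjusted over the 10 ratios). The share of all tested genes whose ratio to Myog separates the groups in this way was not computed. Bin1 (change -0.03, exact permutation p = 0.8) and Ryr3 (-0.05, exact permutation p = 0.9) overlapped between groups. The Bin1 change was 0.021 without KO replicate 1 and that of Ryr3 0.068 without KO replicate 3, so neither has a direction.

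**Figure D3:**
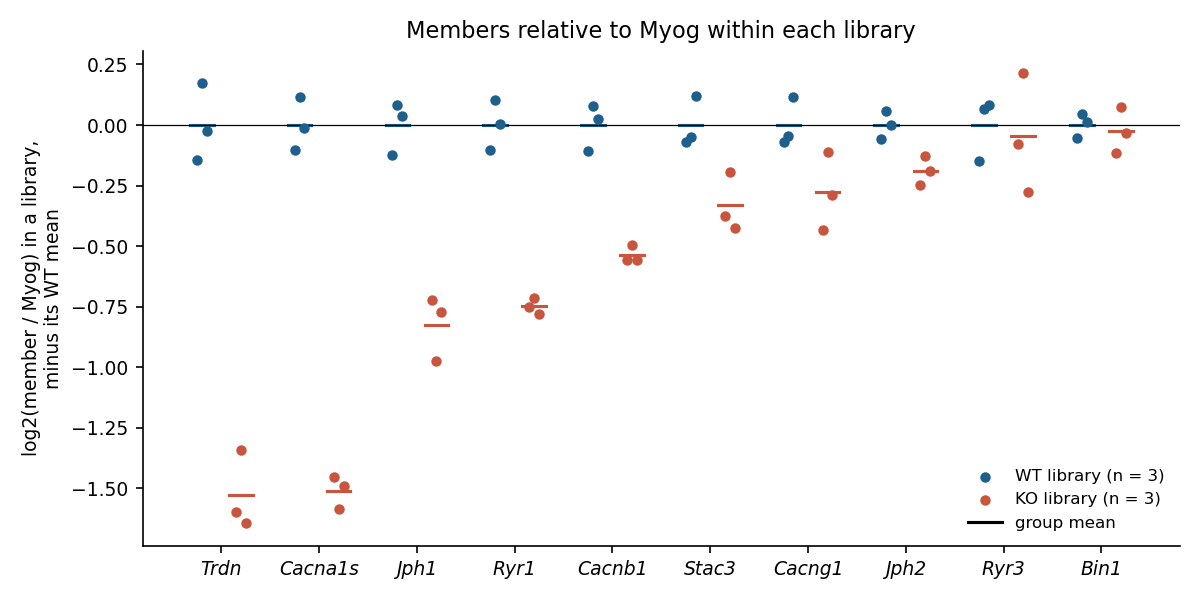
Log2 ratio of each triad gene to Myog within a library, minus the gene's WT mean, so that 0 is the WT level relative to Myog; points are libraries and bars group means. Trdn and Cacna1s lie lowest in KO, and Ryr3 and Bin1 overlap with WT. Myog had the smallest fall of the 8 reference genes, and no other reference was used.

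Of the tested genes of the channel and receptor families 4 of 18 were called lower, and of the other paralogues of the triad genes 1 of 5, beside 33.0% of all genes tested. Those lower in the families included the alpha2delta subunit genes Cacna2d1 and Cacna2d2, which are not paralogues of a triad gene. Ryr2, the cardiac ryanodine receptor, had 0 to 9 counts in a library and was not tested, nor were Cacna1e, Cacng4, Cacna2d3, Cacna2d4, Jph3 and Bin2, and Cacna1f, Cacng2, Cacng3 and Cacng5 were not in the matrix. Cacna1c, the cardiac and smooth muscle L-type channel, was at 1.72 CPM per kb in WT and 1.61 in KO (log2 fold change -0.10, SE 0.07, edgeR adjusted p 0.177). Per kb it stood below Cacna1s in both groups. Its sign turned with library size as the only scaling (0.07), and with GC and length offsets it was called lower (-0.18, edgeR adjusted p 0.0078). Cacnb3, a beta subunit of many tissues, was at 13.6 CPM per kb in WT and 12.4 in KO and was not called (-0.13, SE 0.06, edgeR adjusted p 0.0534). Its level in KO was near that of Cacnb1, which fell from 40.5 CPM per kb in WT to 11.6 in KO. This call also depends on the scaling: Cacnb3 was called lower with median-of-ratios factors (-0.14, edgeR adjusted p 0.0358), with no low-count filter (-0.14, 0.0296), with GC and length offsets (-0.19, 0.0027) and without WT replicate 3 (-0.18, 0.0166), and its sign turned with library size only (0.05).

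Some paralogues and subunits did fall. Cacng6, a further gamma subunit made in skeletal muscle, was at 113, 106 and 113 CPM in WT and 23.9, 23.3 and 23.3 in KO (-2.24, SE 0.06, edgeR adjusted p 7.25e-28). Stac2, an adaptor related to Stac3, went from 32.2 ± 1.27 to 6.65 ± 1.16 CPM (SD, n = 3), a change of -2.28 (SE 0.10), and Cacna2d1, the extracellular alpha2delta subunit of the skeletal channel, from 231 ± 5.75 to 77.6 ± 0.135 (-1.58, SE 0.04). Over the 27 channel and receptor family genes listed, 18 were tested, of which 4 were lower, 6 higher and 8 not called (median 0.20). The other 2 that were lower, Cacna2d2 (-4.51, SE 0.38) and the T-type channel Cacna1i (-2.65, SE 0.37), were at 2.9 and 1.73 CPM in WT. Over the 7 further paralogues 5 were tested: Stac2 was lower, the BAR-domain genes Bin3 (0.17, SE 0.06) and Amph (1.25, SE 0.43, 0.695 CPM in KO) were higher, and Stac and Jph4 were not called. The Bin3 call was lost with DESeq2 (adjusted p 0.0648), with GC and length offsets (0.293) and without WT replicate 1 (0.196), WT replicate 3 (0.0661) or KO replicate 2 (0.107), and the Amph call with DESeq2 (0.0512) and without KO replicate 2 (0.119).

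**Figure D4:**
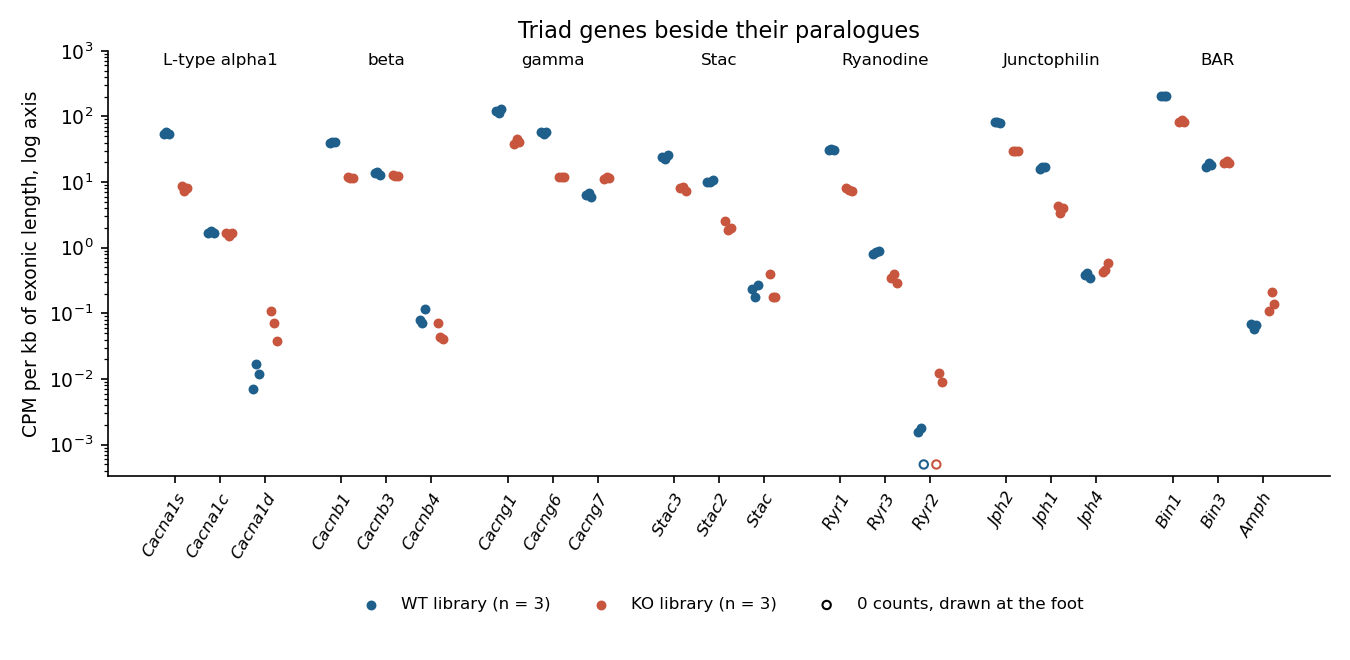
Level per kb of exonic length in each library, on a log axis, for the triad genes and chosen paralogues; open points at the foot are libraries with 0 counts. The gene plotted first is the most abundant of its family in each WT library, and Cacnb1 falls to near the level of Cacnb3 in KO.

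Of the 22 listed genes whose products load, bind or release store calcium, 21 were tested (Pln, the pump inhibitor of heart and slow muscle, was too low), and 16 were lower, 4 higher and 1 not called (median -1.18). Over all tested genes 33.0% were lower and 33.7% higher. The 1.5-fold threshold test called 12 of the 21 lower and none higher, beside 1853 of all 15518 tested genes lower. The calcium pump Atp2a1 fell 8.26-fold, from 2095 ± 63.6 to 254 ± 2.78 CPM (SD, n = 3), and shares 21.9% of its exonic bases with other genes. Calsequestrin Casq1, the partner of Trdn, fell 7.01-fold, from 533 ± 8.39 to 76.1 ± 5.30 CPM, while the cardiac form Casq2 fell 2.78-fold. Casq2 was the more abundant per kb in both groups, at 324 against 273 CPM per kb in WT and 117 against 39.0 in KO. Srl (-2.39) and the pump Atp2a2 (-2.01) were the other 2 with the smallest p-values. Those that were higher included Calm2 (0.50) and Calm3 (0.17), whose product binds the ryanodine receptor among many targets, and Fkbp1a (0.15), which encodes a small protein bound to it. The Fkbp1a levels overlapped between groups, with KO replicate 2 at 233.8 CPM and WT replicate 3 at 234.9. Selenon was not called (0.08, edgeR adjusted p 0.159), but was called higher with library size only (0.25) and without KO replicate 2 (0.15). Of the 16 that were lower, the small pump regulators Sln (-0.37) and Mrln (-0.62) were not called with library size only, Sln also not without WT replicate 1, and Mrln also not without WT replicate 3 or KO replicate 1.

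Of 11 genes that organise the tubule and the reticulum, 9 were lower, 1 higher and 1 not called (median -0.68). Over all tested genes 33.0% were lower and 33.7% higher. The 1.5-fold threshold test called 6 of the 11 lower and none higher. Genes of this list with the smallest p-values included Cavin4 (-1.79), caveolin Cav3 (-1.64) and the ankyrin gene Ank1 (-1.72). Mtm1, the lipid phosphatase mutated in X-linked centronuclear myopathy, was higher (0.41, SE 0.08, edgeR adjusted p 1.6e-05), and the repair protein gene Myof was not called (0.04, edgeR adjusted p 0.421). With library size only, Dnm2 (0.05) and Cavin1 (-0.08) lost their calls as lower and Myof was called higher (0.21). The 8 genes that excite the surface membrane were all lower, with a median of -2.48 and a range from -3.76 for Chrne to -1.84 for Clcn1. They included Scn4a, the sodium channel of the muscle action potential, which went from 56.0 ± 2.02 to 8.86 ± 1.11 CPM (SD, n = 3). The 8 myogenic reference genes were all lower as well, by -2.59 (Myh3) to -1.26 (Myog), with a median of -1.80. No test was made of the differences between these lists.

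The 5 genes whose levels over the 6 libraries followed the median of the triad genes most closely were Mef2c, 1110002E22Rik, Smyd1, Klhl40 and Ncam1. Likeness was the root mean square difference of log2 CPM, each gene centred on its WT mean, and was 0.01 for Mef2c, a transcription factor of muscle genes, and 0.03 to 0.04 for the other 4. Mef2c went from 593 ± 14.2 to 182 ± 7.54 CPM (SD, n = 3; -1.71, SE 0.04, edgeR adjusted p 7.91e-28). Among the triad genes themselves, Cacnb1 lay nearest to the median profile (0.07) and Cacna1s and Trdn farthest (0.76 and 0.77). In all, 65 other genes lay within 0.1 of it, and with 2 groups this measure mostly reflects the size of the fall.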

How the data were processed

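RNA-seq counts were analysed for 3 WT and 3 KO libraries, grouped and numbered by the sample titles. The counts are as the authors deposited them: raw, whole-number gene counts, both in a matrix of the series and in a table per library. The submitters' processing notes name HISAT2 2.2.1, featureCounts 2.0.1 and mm10; the annotation release, counting options and strand were not stated there. Of the matrix identifiers, 21632 matched GENCODE M21, which gave symbols, mm10 coordinates and exonic lengths. Shared exonic bases were found with bedtools 2.31.1.

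Low genes were removed with filterByExpr (minimum count 10, minimum total 15) in edgeR 4.0.16 under R 4.3.3. Counts were scaled by TMM and tested by the quasi-likelihood F-test (glmQLFit, robust) for genotype alone, with Benjamini-Hochberg adjustment over all 15518 genes and a threshold of 0.05. CPM use the TMM-scaled library size, and SEs were obtained from the fold change and its F statistic. Ratios of 2 genes were taken from counts in each library and compared by an exact two-sided permutation test (scipy 1.17.1). The test script was tested on simulated data. No label says that replicates are separate animals or cultures: the p-values cover the spread among these libraries, which could be technical. The mean chi-square per gene was 3.18 to 5.11 between libraries of a group, above sampling noise, so none was taken as a repeat deposit.

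The genes and lists were chosen with earlier results of these data known. The text names all 10 members, the reference genes, from each list the 4 called genes with the smallest p-value, those against the list's majority and those not called (up to 6), the paralogues, and the 5 genes of most similar profile; some genes that this rule names are not reported here. Chrne, Clcn1, Scn4a, Casq2, Sln, Mrln, Dnm2, Cavin1, Cacna2d2, Cacna1i, Cacna1b, Itpr2, Cacna1d and Dpt were named where their values bear on a count or range, after these were seen. Alternatives were DESeq2 1.42.0, limma voom (limma 3.58.1), other scalings and filters, a 1.5-fold threshold test, GC and length offsets, a replicate block, leaving out each library and the per-library tables.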

Additional observations from a re-analysis of the deposited data

How the results depend on the processing

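All 10 triad genes were called lower under each alternative run on the matrix (median-of-ratios factors, library size only, no low-count filter, DESeq2, limma voom, replicate block, 1.5-fold threshold test, GC and length offsets, and each library left out), and without 1 library the number called lower was 10 in each case. The smallest log2 fall of any member was 1.12 and its largest adjusted p 1.66e-07, for Ryr3. Library size only moved the median of all genes from 0.02 to 0.19 and the share of calls that were higher from 50.5% to 66.1%; under it Ryr1 was at -1.84 and Bin1 at -1.12. The 1.5-fold test called 3394 genes in place of 10353. The per-library tables called 2 members lower of 5 tested, with Ryr1 at 0.04 and the change in the Ryr3 to Ryr1 ratio at -0.094; the cause was not tested. They gave no ratio value where a library had 0 counts, and none to Myog.

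Without 1 library, the change in log2 ratio to Myog ran from -0.075 to 0.021 for Bin1 (0.021 without KO replicate 1) and from -0.18 to 0.068 for Ryr3 (0.068 without KO replicate 3), and no other ratio changed direction. With the replicate block all 10 members were called lower, 10209 genes were called in all, and the paired exact sign-flip permutation test of the ratios could not go below p = 0.25. Deviations of same-numbered libraries from their group means correlated at -0.03 to 0.00 over genes, so the numbers were not taken to pair the samples. A pseudocount of 0.5 changed no direction. Counting depth limits Ryr3 most, at 104 to 450 counts in a library.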

Other observations

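The small GTPases of the RGK family, which bind the channel's beta subunit and reduce L-type current, did not move together. Rrad went from 78.5 ± 1.22 to 23.3 ± 3.09 CPM (SD, n = 3; log2 fold change -1.75, SE 0.07, edgeR adjusted p 1.41e-19) and Gem from 15.2 ± 1.39 to 11.0 ± 0.634 (-0.47, SE 0.10, edgeR adjusted p 6.54e-05). Rem1 was higher in KO (0.41, SE 0.10, edgeR adjusted p 0.000773), and Rem2 was too low to test. The 1.5-fold threshold test called 1 of these genes lower and none higher, with 2 not called.

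Of the 18 tested genes of the channel and receptor families, 6 were higher in KO, beside 33.7% of all genes tested. With library size only 9 were higher, but that scaling called 10927 of all 15518 tested genes, and 66.1% of its calls were higher. The T-type channel Cacna1g was at 2.38 ± 0.195 CPM in WT and 11.5 ± 0.957 in KO (SD, n = 3; 2.26, SE 0.14, edgeR adjusted p 1.91e-16), and the neuronal channel Cacna1b at 1.12 ± 0.410 and 5.07 ± 0.950 (2.19, SE 0.23, edgeR adjusted p 2.11e-10). The IP3 receptor Itpr3, a calcium release channel of many cell types, was at 85.1, 93.8 and 85.5 CPM in WT and at 162, 159 and 163 in KO (0.87, SE 0.05, edgeR adjusted p 3.92e-18), and Itpr2 rose by 0.71 on the log2 scale (SE 0.07). Itpr1 was at 38.7 ± 2.14 and 41.0 ± 3.14 CPM and was not called (0.08, SE 0.07, edgeR adjusted p 0.281), though it was called higher with library size only (0.25). In WT, Ryr1 exceeded Itpr3 per kb (31.0 against 9.77 CPM per kb), and in KO the order was turned (7.67 against 17.9). Cacng7 (0.87) and Cacna1d (2.62, at 0.916 CPM in KO) were the other 2 channel genes that were higher.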
